A study of Homo sapiens with 8 samples.

Results

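A small set of 60 array probes gained signal at least 4-fold, relative to the other probes of their arrays, over 18 h of alpha-amanitin, both in control and in TARBP2 knock-down cells. They were chosen from 47321 probes by a detection p-value under 0.01 in all 4 arrays at 18 h, which 14833 probes met, and by a mean log2 value at least 2 higher at 18 h than at 0 h in each arm of the study, on the authors' normalized values. The 60 members are 0.405% of the 14833. Their 18 h rises chose them and are given below as a description, with no test. The arrays are Illumina BeadChips hybridised with total RNA of MDA-LM2 cells, a derivative of the human breast cancer line MDA-MB-231 that is prone to metastasise to the lung. All groups were transfected and left for 48 h. The first pair of groups was then taken at once, as control cells at 0 h and TARBP2 knock-down cells at 0 h, both untreated, and the second pair after 18 h with alpha-amanitin at 10 µM. Each of the 4 groups has 2 arrays, each with a reagent label of its own: siTARBP2-1 or siTARBP2-2 in the knock-down groups and siControl-1 or siControl-2 in the control groups, as replicates 1 and 2 at both times. The labels do not say whether the siControl names are different siRNAs. The sample titles name siControl where the series text has mock-transfected cells, so whether a response to any siRNA is part of the knock-down effect cannot be told apart. Nothing in the labels says that arrays of a group came from separate cultures, beyond these reagent labels, so p-values measure the spread between these arrays, which may be technical.

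Alpha-amanitin, a toxin of the death cap mushroom, binds RNA polymerase II and stops it from elongating. RNA polymerase III is inhibited only at higher concentrations, and RNA polymerase I and the mitochondrial polymerase are resistant. Once messenger RNA synthesis stops, each transcript already made is lost at its own rate. On arrays scaled to a common distribution, as here, a change is measured against the other transcripts. TARBP2 binds double-stranded RNA and works with Dicer in making microRNAs and it also binds structured elements of other transcripts. The design asked whether its loss changes how fast transcripts are lost.

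Neither the array tables nor the reference tables used here pair probes with genes, so members are given by probe identifier, with no gene, role or sequence. For the same reason neither the level of TARBP2 nor the markers of the cell line could be read from these arrays.

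Between 15541 and 17619 probes were detected per array. The upper quartile of an array's non-normalized signals was lower at 18 h (174 and 183.5 in the control arrays, 221.6 and 220 in the knock-down arrays) than at 0 h (268.1 and 272.3 in control, 251 and 266.1 in knock-down). The array medians ran from 89.5 to 91.6 at 0 h and from 87.8 to 94.4 at 18 h. Normalization to a common distribution removes such differences between arrays. All changes below are therefore relative to the other probes of an array unless the signal is said to be non-normalized. The drug and the time in culture go together, so their parts in a change over 18 h cannot be told apart.

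The member with the largest rise was ILMN_1881909. Its non-normalized signal was 313.6 and 282.4 in the control arrays at 0 h and 32262.4 and 34220.3 at 18 h. In the knock-down arrays it was 310.1 and 313.2 at 0 h and 32574.2 and 30853.7 at 18 h. All 4 arrays at 18 h were thus about equally bright, far above all 4 arrays at 0 h, and the probe was detected on every array. On the authors' normalized values it rose 120-fold in control and 110-fold in knock-down cells. After background correction and quantile normalization with neqc, the scale of all levels and differences below unless stated otherwise, the folds were 164 and 146.

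ILMN_1739423 came next. Its non-normalized signal was 139.1 and 122.5 in the control arrays at 0 h and 2269.1 and 2097.8 at 18 h, and in the knock-down arrays 125.8 and 152.3 at 0 h and 2406.9 and 2261.3 at 18 h. With neqc that is a rise of 39.2-fold in control and 31.8-fold in knock-down cells. The normalized level of ILMN_1723123 rose from 6.03 and 6.24 to 10.42 and 10.49 in control arrays, and from 6.33 and 6.48 to 10.81 and 10.77 in knock-down arrays. Its 18 h levels, unlike those of the first members, were higher in both knock-down arrays than in both control arrays. ILMN_2074860 was at 7.58 and 7.46 in control and 7.63 and 7.53 in knock-down arrays at 0 h, and reached 11.59 and 11.38 in control and 11.34 and 11.25 in knock-down arrays. It too was detected on every array.

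These probes are the far end of a steep distribution. Taking for each member the smaller of its rises in the arms, on the authors' values, 40 members lay between 2 and 2.5, 13 between 2.5 and 3, and 7 at 3 or more. The median rise was 2.36 in control cells and 2.47 in knock-down cells, or 5.14-fold and 5.52-fold. The rule's floor of 2 on the mean rises makes overlap of the times unlikely, and no member had it. The smallest gap on the authors' values between the lowest 18 h array and the highest 0 h array of an arm was 1.85. With arrays matched by replicate number, the rises ran from 1.94 to 6.78 in control pair 1, 1.85 to 7.05 in control pair 2, 1.92 to 6.80 for siTARBP2-1 and 1.93 to 6.75 for siTARBP2-2. Between 56 and 58 of the 60 reached 2 in each of these pairs, a count that the floor on the mean rises largely sets.

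The threshold fell in a crowded range. Just inside it were ILMN_1759411, with authors' values of 2.01 in control and 2.12 in knock-down cells, ILMN_1690170 with 2.27 and 2.02, and ILMN_2158003 with 2.02 and 2.07. Just outside were ILMN_2058782 with 2.02 and 1.98, ILMN_1762605 with 1.97 and 2.25, and ILMN_3235335 with 2.32 and 1.97. A further 29 probes reached 2 in control cells alone and 28 in knock-down cells alone. In the arm where they fell short, these still rose by 1.17 to 1.98 and by 1.33 to 1.97, so the rule separates them from the members by degree. Probes that fell by 2 or more in both arms, among those detected in all 4 arrays at 0 h, were more numerous, at 235.

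The members started low. At 0 h their median level was 6.17 in control and 6.25 in knock-down cells, and only 4 of 60 in each arm were above the median of the 18664 tested probes (8.37 in both). At 18 h the median was 9.50 and 9.58, and 52 and 53 of 60 were above the median of the tested probes (8.36 in both). The rule favours low values at 0 h, so this is a description of what it picked. The median SD of a pair of replicate arrays over the members was 0.106 in control and 0.086 in knock-down cells at 0 h, and 0.056 and 0.042 at 18 h. Over all tested probes the corresponding medians were 0.065, 0.070, 0.075 and 0.064. Replicates of the members thus differed more than those of all tested probes at 0 h and less at 18 h.

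Detection at 0 h divided the members. On all 4 arrays at 0 h 32 were detected, on none 22, and on 1 to 3 of them 6. Among the 14833 probes detected at 18 h, 94.4% were detected on all 4 arrays at 0 h and 2.24% on none. For the 22 the 0 h level is only a bound, so their folds are too. So are the knock-down folds of ILMN_1689200 and ILMN_1708907, which at 0 h were detected on control arrays alone. Each 0 h array was set at its own value for the probe, or at the dimmest detected probe of that array where this was higher. The rise of the 22 was then at least 4.06-fold to 13.5-fold in control and at least 3.66-fold to 13.4-fold in knock-down cells. Without background correction these bounds ran from 2.42-fold to 6.84-fold and from 2.26-fold to 6.92-fold. At 18 h the 22 had reached levels of 7.81 to 9.54 in control and 7.73 to 9.60 in knock-down cells, below the median of 10.5 in either arm for the 32.

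ILMN_1727756 is a member of this kind. Its non-normalized signal was 78.4 and 86.6 in control and 82.8 and 78.0 in knock-down arrays at 0 h, below detection on all 4. At 18 h it was 524.1 and 606.4 in control and 800.3 and 756.4 in knock-down arrays. Its rise was at least 12.6-fold in control and at least 13.2-fold in knock-down cells (at least 6.43-fold and 6.87-fold without background correction). ILMN_1738116, also below detection at 0 h, was at 4.44 and 4.43 in control and 4.43 and 4.55 in knock-down arrays at 0 h, and 8.90 and 8.89 in control and 8.89 and 8.89 in knock-down arrays at 18 h. Its rise was at least 8.63-fold in control and at least 8.19-fold in knock-down cells (at least 4.55-fold and 4.43-fold without background correction). ILMN_1781745 rose at least 13.0-fold and 13.4-fold (at least 6.60-fold and 6.93-fold without background correction).

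How large the rises were depended on the scale. All 60 members were higher at 18 h than at 0 h in both arms on each of the 6 scales computed. The rule had chosen them for a large rise in these same arrays, and rescaling could hardly reverse it. Their shared direction is therefore a description and not a separate check. The median rise with neqc was 3.14 in control and 3.20 in knock-down cells, or 8.80-fold and 9.20-fold, against 5.14-fold and 5.52-fold on the authors' values. With background-corrected arrays scaled to a common median it was 2.59 and 2.97, and 46 and 56 of 60 reached 2. In the non-normalized signals it was 1.82 in control and 2.25 in knock-down cells, and 21 of 60 in control and 43 of 60 in knock-down cells reached 4-fold.

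The sizes of the rises were alike in the arms, which share no array. Over the 60 members they correlated at r = 0.948 (Spearman 0.888), and at r = 0.913 without ILMN_1881909. The members were chosen to be high in both, and probes are not independent replicates, so these values are descriptions. They include the members detected on no 0 h array, whose rises are bounds. The difference between arms was under 0.5 for 57 of 60 members, with a median size of 0.225.

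Whether knock-down altered the members was asked with contrasts that the rule did not threshold: the arms against each other at 0 h, at 18 h, and in their change over 18 h. The rule used the same arrays, but does not fix the sign of these differences. Each was fitted with limma over all 18664 probes detected on at least 2 arrays, a filter that all 60 members pass by their 18 h arrays alone, and p-values were adjusted by the Benjamini-Hochberg method over all of them.

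Before the drug, 3 of the 60 members differed between the arms (adjusted p under 0.05), 1 higher and 2 lower in knock-down cells. Over all tested probes 3.89% were called, 2.06% higher and 1.83% lower. The 22 members detected on no 0 h array have no detected level to compare at that time, and none of them was called. All 3 calls were among the 32 members detected on every array (9.38% of these), where 4.44% of the 13995 tested probes so detected were called. Fitted over probes detected on all 8 arrays alone, 9 of the 32 members were called, 6 higher and 3 lower, against 11.9% of all probes in that fit. The difference between members and other probes was not tested. The median difference was 0.003 for the members, 0.058 for the 32 of them detected on every array and -0.001 for all tested probes. The lower probes were ILMN_1667295 and ILMN_2374865. ILMN_1667295 was at 8.13 and 8.17 in control arrays and at 7.69 and 7.45 in knock-down arrays, 1.49-fold lower (log2 -0.58, SE 0.092, limma adjusted p = 0.0271). ILMN_2374865 was at 8.29 and 8.15 in control and 7.83 and 7.77 in knock-down arrays, 1.34-fold lower (log2 -0.42, SE 0.074, limma adjusted p = 0.0335). The higher probe was ILMN_1716988, at 7.88 and 7.81 in control and 8.27 and 8.21 in knock-down arrays, 1.32-fold higher (log2 0.40, SE 0.081, limma adjusted p = 0.0485). In each case the arrays of the arms did not overlap, which a call between groups of 2 arrays makes likely. Without any one of the 8 arrays the log2 difference ran from -0.70 to -0.457 for ILMN_1667295 and from -0.494 to -0.346 for ILMN_2374865. For ILMN_1716988 it ran from 0.36 to 0.434. Each such fit leaves 1 array in a group. Most of these fits lost the 3 calls, and they made fewer calls over all tested probes too. With replicate number as a block none of the 60 members was called, against 1.52% of all tested probes. With arrays scaled to a common median, 0 members were called higher and 3 lower, against 4.19% of all tested probes.

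After 18 h of the drug, 14 of 60 members differed between the arms, 8 higher and 6 lower in knock-down cells. That is 23.3% of the members, where 28.6% of all tested probes were called, 15.5% higher and 13.1% lower. The differences were modest: the 8 higher members were raised 1.21-fold to 1.36-fold and the 6 lower members reduced 1.28-fold to 1.40-fold. The largest increase was that of ILMN_1814333, at 9.62 and 9.70 in control and 10.08 and 10.14 in knock-down arrays (log2 0.45, SE 0.083, limma adjusted p = 0.0106). ILMN_3238676 was at 10.97 and 10.82 in control and 11.32 and 11.30 in knock-down arrays (log2 0.41, SE 0.098, limma adjusted p = 0.0225). Among the members that were lower after knock-down, ILMN_1751607 was at 10.76 and 10.65 in control and 10.17 and 10.26 in knock-down arrays (log2 -0.49, SE 0.093, limma adjusted p = 0.0114). ILMN_1669523 had the lowest p of the members, at 9.60 and 9.57 in control and 9.14 and 9.21 in knock-down arrays (log2 -0.41, SE 0.066, limma adjusted p = 0.00661). The arms did not overlap for any of these, which their calls make likely.

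Of the 32 members detected on all 4 arrays at 0 h, 7 were called higher and 3 lower at 18 h (31.2%), where 30% of the tested probes detected on every array were called. Of the 22 detected on none, 0 were called higher and 2 lower (9.09%), where 25.3% of the 332 tested probes of that kind were called. The 14 calls mostly had the same sign before the drug. It was so for 12 of 14 (85.7%), against 61.1% of the 5339 probes called over the whole array. The difference between these shares was not tested. The 0 h arrays do not enter the 18 h contrast, but the rule used them, and its floor on both rises may favour equal signs. The matches include 0 h differences of 0.0115 (ILMN_3238676) and 6.0e-05 (ILMN_2406410). The 2 lower members detected on no 0 h array had no detected level to compare then. ILMN_1708907, another of the lower members, was at 0 h detected on control arrays alone. No member was called at both times, and 43 (71.7%) were called at neither, where 2.03% of all tested probes were called at both and 69.5% at neither. Over the 60 members the effects at 0 h and 18 h correlated at r = 0.276 (Spearman 0.237), and over all tested probes at r = 0.188. The 60 include the 22 members with no detected level at 0 h.

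How many members were called at 18 h changed with the arrays and the scaling, over all probes too. Without replicate 1 or 2 of the control arrays at 18 h the count was 6 or 4, where 21.5% or 19.8% of all tested probes were called. Without siTARBP2-1 or siTARBP2-2 at 18 h it was 3 or 2, against 13.7% or 13%. It was 9 without either knock-down array at 0 h, against 25.2%, and 13 without either control array at 0 h, 11 of them among the 14, against 23.6%. ILMN_1669523 was called whichever of the 8 arrays was left out, with a log2 difference between -0.445 and -0.375. ILMN_1814333 lost its call only without siTARBP2-2 at 18 h, and ILMN_1751607 only without siTARBP2-1 at 18 h, with differences of 0.406 to 0.486 and of -0.546 to -0.431 over the 8 fits. With replicate number as a block 9 members were called, all among the 14, where 25.5% of all tested probes were called. With arrays scaled to a common median, 32 members were called higher and 1 lower. That setting called 43.4% of all tested probes, 86% of these calls being higher, and the median difference over all tested probes moved from 0.012 to 0.196. Set against that shifted median, the members' median difference was 0.0968 higher, and 0.0464 higher with neqc.

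The rise itself differed between the arms for 3 of 60 members (5% of them). Of all tested probes 11.1% were called, 6.15% with a larger and 4.92% with a smaller rise in knock-down cells. The rule's floor on both rises may lower the members' share, and the difference from other probes was not tested. For the 22 members detected on no 0 h array the rises are bounds, so their difference is not known, and none of them was called. All 3 calls were among the 32 detected on every array (9.38%), where 11.4% of the tested probes so detected were called. All 3 rose more in knock-down cells, and 0 rose less by limma's adjusted p. At an unadjusted p under 0.05 there were 9 of 60 members with a larger and 7 with a smaller rise, against 16.2% and 14.5% of all tested probes. The median of this stability difference was -0.002 over the members and 0.008 over all tested probes, and 30 of 60 members were above 0. Over the 32 members detected on every array the median was 0.022. The difference ran from -0.43, in ILMN_2284941, which was detected on no 0 h array, to 0.63. Its size without sign had a median of 0.225 over the members and 0.221 over all tested probes, with a median SE of 0.133 and 0.132. The values over all 60 members and the unadjusted counts include the 22 with no detected 0 h level.

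For ILMN_1667295 the stability difference was 0.63 (SE 0.13, limma adjusted p = 0.0333), a rise of 7.18-fold in control and 11.1-fold in knock-down cells. At 18 h it was at 10.96 and 11.03 in control and 11.08 and 11.02 in knock-down arrays, which overlap. It was the 0 h arrays, described above, that lay apart. For ILMN_2374865, also lower in knock-down cells at 0 h, the 18 h arrays were at 11.19 and 11.18 in control and 11.32 and 11.29 in knock-down cells. These did not overlap, and the 18 h difference of 0.12 did not pass the test (limma adjusted p = 0.261). Its stability difference was 0.54 (SE 0.10, limma adjusted p = 0.0293). ILMN_1651496 rose from 9.42 and 9.38 to 11.89 and 11.91 in control arrays and from 9.11 and 9.23 to 12.26 and 12.09 in knock-down arrays. Its difference was -0.23 at 0 h (limma adjusted p = 0.164), 0.27 at 18 h (limma adjusted p = 0.0471) and 0.50 in the rise (SE 0.12, limma adjusted p = 0.0409).

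Without any one of the 8 arrays the stability difference ran from 0.51 to 0.754 for ILMN_1667295 and from 0.466 to 0.614 for ILMN_2374865. For ILMN_1651496 it ran from 0.42 to 0.587. Each such fit leaves 1 array in a group. Most of these fits lost all the calls on members, and every one of them made fewer calls over all tested probes too. The reagent labels link the 0 h and 18 h arrays of an arm by number. With this number as a replicate block within each arm, 0 members were called (lowest limma adjusted p 0.0647), and 0% of all tested probes. With 1 block for both arms, 1 member was called, against 7.07% of all tested probes. With arrays scaled to a common median, 18 members were called, all with a larger rise in knock-down cells. That setting called 27.8% of all tested probes, 91.7% of these calls being higher, and the median over all tested probes moved from 0.008 to 0.220. Relative to that median, the members' median was 0.0439 higher.

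The 2 TARBP2 siRNAs were compared by setting each against the control array of the same number, which gives 1 array per siRNA and time and no test. At 18 h their effects on the 60 members had the same sign for 47 (78.3%) and correlated at r = 0.807 (Spearman 0.753), against 75.9% and r = 0.629 over all tested probes. At 0 h 38 members had the same sign (63.3%, r = 0.463), against 67.4% and r = 0.494 over all tested probes. For the stability difference it was 42 members (70%, r = 0.501), against 71.1% and r = 0.530. The values at 0 h and for the stability difference include the 22 members that had no detected level at 0 h. These are descriptions across probes, which are not independent replicates, and the difference between members and other probes was not tested.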

How the data were processed

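Per the file headers, the authors deposited a non-normalized intensity and a detection p-value for each of 47321 probes on each of 8 arrays. A second deposited table holds intensities that, by their nearly identical sorted values, the authors had normalized between arrays. The submitters' processing notes name lumi without its settings. This table, on the log2 scale, chose the members. The authors' deposited table of stability ratios per transcript accession was not used, since nothing pairs accessions with probes.

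Signals were corrected and quantile-normalized with neqc (offset 16) in limma 3.58.1 under R 4.3.3. Probes with a detection p under 0.01 on at least 2 arrays were kept, 18664 in all. A linear model of the 4 groups was fitted over the 8 arrays together (4 residual degrees of freedom, 2.9 prior), with 2-sided tests, and checked on simulated data. Calls are Benjamini-Hochberg adjusted p-values under 0.05. At most 0.33% of probes had equal signals in replicate arrays, so none was a duplicate. The number of arrays limits the precision. The members, the tests and the rule for named probes were chosen with earlier results of these data known. That rule took the members with the largest rises, those called in a contrast between arms and those next to the threshold, and the text gives the first few of each. Gene lists, cell markers and promoter motifs planned for this work could not be applied to probes without names.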

Additional observations from a re-analysis of the deposited data

Results flagged for a closer look

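For 3 probes the change over 18 h differed between knock-down and control cells by limma's test of the difference itself. The stability difference was 0.63 for ILMN_1667295 (limma adjusted p = 0.0333), 0.54 for ILMN_2374865 (limma adjusted p = 0.0293) and 0.50 for ILMN_1651496 (limma adjusted p = 0.0409), each higher in knock-down cells. They are 3 of 60 members (5%), where 11.1% of all tested probes were called, and all 3 are among the 32 members detected on every array (9.38%, against 11.4% of the tested probes so detected). The difference in share was not tested, and the rule's floor on both rises may lower the members' share. No sample of a group could be tested for standing apart, since each group has 2 arrays.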

How the results depend on the processing

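The number of members was 192 with neqc values, 231 with a log2 threshold of 1.5, 7 with a threshold of 3 and 32 with detection required on all 8 arrays, and 57 to 61 without any one array. It was 74 with median-scaled values, which share 45 of the 60. Each count of called members here, except those without any one array, is followed by the share of all probes called in the same fit. A fit without an array leaves 1 array in a group. Every such fit also called a smaller share of all tested probes than the fit over the 8 arrays, so its loss of calls is not particular to the members. At 0 h 5 were called with the authors' values (6.16%), 5 with cyclic loess (4.73%), 5 without background correction (7.29%), 9 of the 32 members tested with detection on all 8 arrays (11.9%), 0 with no filter on dim probes (0.277%) and 0 to 3 without any one array, against 3 of 60 (3.89%). At 18 h it was 33 with median scaling (43.4%), 4 with no filter on dim probes (7.02%) and 2 to 13 without any one array, against 14 (28.6%). For the stability difference it was 18 with median scaling (27.8%), 7 without background correction (16.2%, the members being 4 higher and 3 lower), 0 with no filter on dim probes (0.811%) and 0 to 1 without any one array, against 3 (11.1%). The filter sets how many probes the adjustment covers, and the cause of the other shifts was not tested. The median stability difference of the members, -0.002, was 0.048 with the authors' values, 0.26 with median scaling, -0.018 with cyclic loess, 0.046 without background correction, 0.022 with detection on all 8 arrays and -0.022 to 0.032 without any one array. Within an arm the number names the reagent and so links arrays of the separate times, while the labels give no shared culture or day. Deviations of same-numbered arrays correlated at -0.035 to 0.027 across probes, over all pairs of groups. Between the times of an arm the correlation was -0.012 in control and 0.027 in knock-down cells. With the replicate number as a block 0 members were called at 0 h (1.52%), 9 after the drug (25.5%) and 1 by the stability difference (7.07%), and 0 by the stability difference with a replicate block within each arm (0%). The 20 calls on single members kept their sign under every alternative computed, and 137 of 299 such values no longer passed the threshold. Changing the filter, adding a block or leaving out an array that a contrast does not use left the estimate of a call unchanged. In those settings the sign could not change. Probes near background have folds that depend on the background correction.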
